A study of Caenorhabditis elegans with 2 samples.

Results

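Of the 1145 SAEG-2 binding peaks in the authors' conservative list, 392 had their summit more than 500 and at most 2000 bp from the nearest annotated 5′ end of a protein-coding transcript, and these 392 peaks are described here. The distance was taken to any such end, upstream or downstream, in the WBcel235 annotation, so that the position of a peak alone, and not its strength, decided whether it belonged. Another 424 peaks lay nearer (at most 500 bp) and 329 lay farther away (over 2000 bp). The peaks came from chromatin immunoprecipitation and sequencing (ChIP-seq) of whole L4 larvae of Caenorhabditis elegans strain RW12230, in which CRISPR had inserted TY1, EGFP and 3xFLAG tags into saeg-2 on chromosome III, and the precipitation used an antibody to GFP. The worms were bleached, arrested as L1 by starvation and taken at 48 h, and 2 biological replicates formed the only group. All tissues of the larva were pooled, so a peak does not tell in which cells it arose, and fewer cells with a bound site cannot be told apart from weaker binding in each. No untagged or input control was analysed here, and read totals are not in the lists, so the depth behind each value is unknown.

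SAEG-2 is a nuclear protein that was found together with SAEG-1 as a suppressor of activated EGL-4, the cGMP-dependent protein kinase that controls body size, lifespan and egg laying in this worm. Both proteins act with the class I histone deacetylase HDA-2, which removes acetyl groups from histone tails. In the compact genome of C. elegans, much regulatory sequence lies close to a coding 5′ end. Sequence farther out holds introns, distal elements, the hidden 5′ ends of trans-spliced genes, and many genes for short noncoding RNAs such as tRNAs, small nucleolar RNAs (snoRNAs) and the spliced leaders that are joined to messenger RNAs.

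The summit sequences below are shown because they carry the strongest signal of the 392 peaks, or the small RNA genes and words that the later results turn on. Each is the summit with 50 bases on either side, read 5′ to 3′ on the plus strand of WBcel235 (the same sequence as ce11) from the RefSeq copy of that assembly. A peak is named by the coding gene whose 5′ end is nearest. In the peak of tag-340 the capitals mark the word ACGCAG, in F55C5.17 and pqn-71 the letters GTTCGANNC (the core of the B box inside tRNA genes), in ZK1248.17 the bases of the spliced leader gene sls-2.1, in F20B6.9 and nspc-17 the letters CCCTGCGCG, and in epg-9 the words CACGTG and CTGCGTCTC. The summit of saeg-1 held none of these words. The peak of epg-9 was chosen for its words after its values were seen.
tag-340 (chrIII:4899876-4899976): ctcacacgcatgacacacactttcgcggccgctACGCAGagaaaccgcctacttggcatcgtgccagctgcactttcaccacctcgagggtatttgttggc
F20B6.9 (chrX:4209231-4209331): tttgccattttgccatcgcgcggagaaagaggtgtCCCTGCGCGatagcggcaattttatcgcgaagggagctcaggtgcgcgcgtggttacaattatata
F55C5.17 (chrV:12303591-12303691): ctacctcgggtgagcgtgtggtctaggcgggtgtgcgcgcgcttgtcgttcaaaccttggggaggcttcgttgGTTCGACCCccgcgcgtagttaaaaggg
ZK1248.17 (chrII:5844809-5844909): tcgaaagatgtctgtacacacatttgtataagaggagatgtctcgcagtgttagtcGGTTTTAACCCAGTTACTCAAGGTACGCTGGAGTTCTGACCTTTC
nspc-17 (chrX:14525858-14525958): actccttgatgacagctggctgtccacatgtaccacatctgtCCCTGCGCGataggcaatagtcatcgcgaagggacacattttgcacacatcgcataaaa
saeg-1 (chrV:10858541-10858641): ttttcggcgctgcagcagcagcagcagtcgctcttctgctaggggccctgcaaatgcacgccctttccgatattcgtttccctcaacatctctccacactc
epg-9 (chrIV:2602084-2602184): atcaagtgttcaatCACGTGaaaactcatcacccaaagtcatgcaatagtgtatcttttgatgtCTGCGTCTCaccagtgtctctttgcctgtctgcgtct
pqn-71 (chrV:15465086-15465186): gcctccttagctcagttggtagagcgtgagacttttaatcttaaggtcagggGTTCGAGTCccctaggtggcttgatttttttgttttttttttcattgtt

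The density of the 392 peaks varied little over the sequence available at their distance. They made up 34.2% of the conservative list (95% Wilson interval 31.5 to 37.0, counting error only), while 41.9% of all genome bases lie at this distance. That is a density of 9.33 peaks per Mb, close to the 9.36 per Mb of the farther peaks and below the 18.3 per Mb of the nearer ones. In steps of 250 bp from 500 to 2000 bp, the density was 10.9, 8.40, 8.85, 8.68, 8.56 and 10.3 peaks per Mb, from counts of 105, 71, 65, 55, 47 and 49 peaks. Counts fell from the first step to the fifth, and so did the number of bases available in each step. The share was alike in the list of each replicate, with 154 of the 452 peaks of replicate 1 and 189 of the 541 peaks of replicate 2, a mean of 34.5% ± 0.611 (SD, n = 2).

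**Figure D1:**
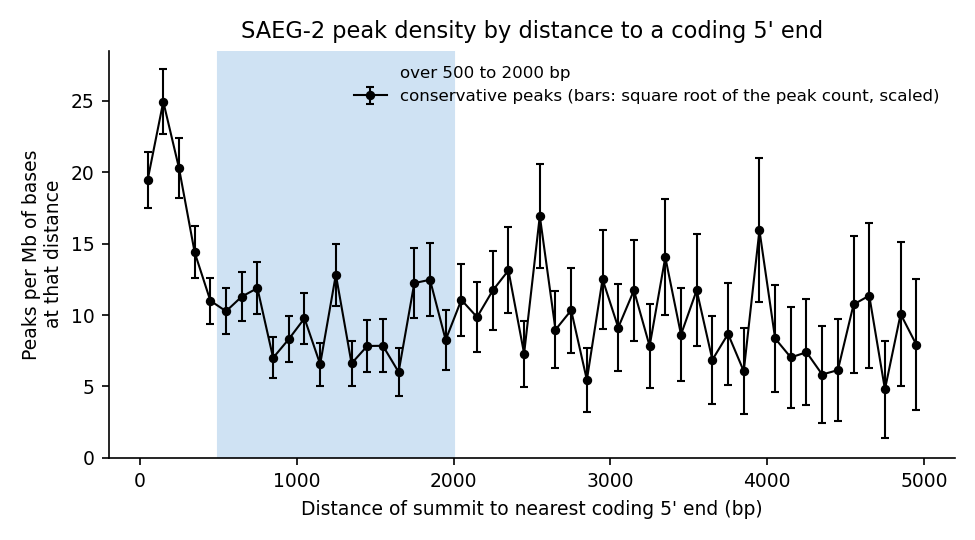
Number of conservative SAEG-2 peaks per Mb of genome bases (y axis) against the distance of the summit from the nearest coding 5′ end (x axis, bins of 100 bp), with error bars of the square root of the peak count. The density is highest at 24.9 per Mb from 100 to 200 bp, and from 500 to 2000 bp (shaded) it stays between 6.01 and 12.8 per Mb.

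The median distance from the coding 5′ end was 1058 bp. The summit was upstream of that end in 215 peaks and downstream of it in 177. In 299 peaks the nearest end was the outermost 5′ end of its gene, and in 93 it was an internal one, as in saeg-1, pqn-41 and ints-8. The members at the edges show what the limits decided. W07E11.1 at 503 bp (signal value 133) and dct-16 at 505 bp (91.2) were just inside, and R11A5.6 (125) and gtnt-25 (72.8), both at 500 bp, just outside. At the far edge, cya-1 at 1997 bp (3.95) and unc-43 at 2000 bp (78.9) were inside, and ckk-1 (119) and klp-13 (81.8), both at 2001 bp, outside.

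Signal values of the 392 peaks spanned a wide range, and most of the peaks above the upper quartile of the whole list were found in both replicates. The signal value was set by the authors in a unit that no label or header gives, so it says which peaks are higher than others and not how much protein is bound. Values of different lists are set side by side as a description only. It ran from 2.28 to 468 with a median of 94.98 and quartiles of 79.6 and 122. In the replicates' own thresholded lists, 144 of the 392 overlapped a peak of replicate 1 and 163 a peak of replicate 2. Both lists held 98 of them (25%, 20.97 to 29.5), 46 were in replicate 1 alone, 65 in replicate 2 alone and 183 in neither. The next counts use the quartiles and median of the whole conservative list, not those of the 392 peaks. Above its upper quartile, 79 of 90 were in both replicates. This fell to 14 of 86 between that quartile and the median, 1 of 105 between the median and the lower quartile, and 4 of 111 below it. All of the 50 strongest peaks, down to a signal value of 159, were in both. The conservative list was made from both replicates together, so its signal value and presence in the replicates' lists are not independent. The share found in both replicates was 28.3% among nearer peaks and 25.2% among farther ones, and neither differed from that of the 392 peaks by Fisher's exact test (two-sided, adjusted p = 0.434 and 1). Here and below the adjustment is Benjamini-Hochberg over 10 such tests, 5 features against the nearer and the farther peaks, with a threshold of 0.05. These tests take each peak as 1 unit, although neighbouring peaks are not independent.

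**Figure D2:**
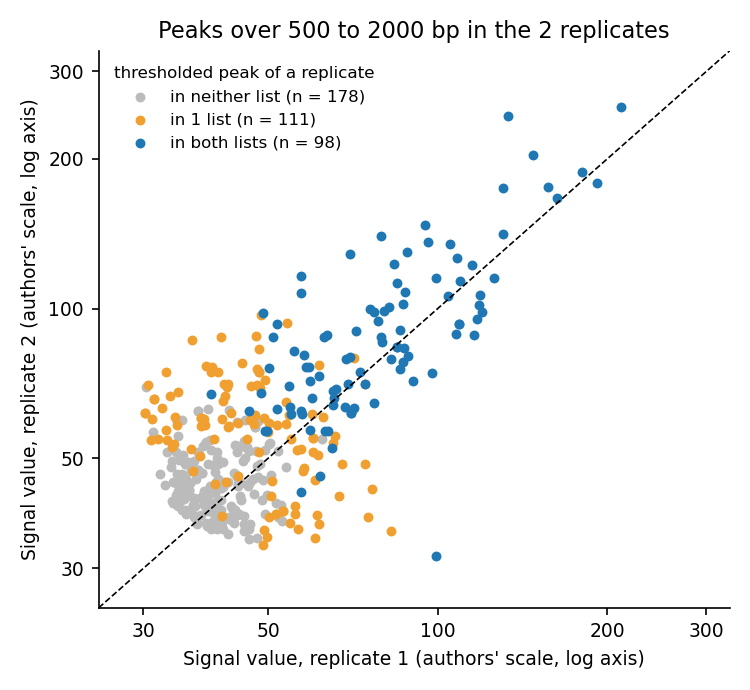
Signal value of the overlapping ranked peak in replicate 1 (x axis) and replicate 2 (y axis), both in the authors' scale on log axes, for the 387 of the 392 peaks with a ranked peak in both replicates. Blue points are in both thresholded lists (98), orange in 1 list (111) and grey in neither (178), and the dashed line marks equal values.

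Each replicate also had a ranked list that goes far below its threshold, and in these 387 of the 392 peaks had a counterpart in both replicates. The other 5 lacked one in replicate 1. The conservative list was made from both replicates together, so this count does not measure how well the replicates agree. Over the 387 peaks the values of both replicates had a Spearman correlation of 0.46, and a Pearson correlation of 0.69 on the log2 scale, a description over sites that share 2 libraries. The value of replicate 2 was higher in 260 peaks, with a median ratio of 1.12. Where peaks overlap each other, their replicate values can belong to the neighbour. This concerned 48 of the 392 peaks, and 21 of the 23 peaks with a signal value under 40 overlapped another conservative peak. Joining overlapping members left 374 separate regions.

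The strongest peak lay 582 bp upstream of tag-340, at chrIII:4899820-4900044, in an exon of the noncoding RNA F26F4.14 and between divergent genes. Its signal value was 468, with 212 in replicate 1 and 254 in replicate 2. The peak upstream of F20B6.9 followed with 385 (133 and 243), and that of nspc-17 had 343 (157 and 176). Both are intergenic and on X. The peak 865 bp upstream of cbp-1, which encodes the CBP/p300 histone acetyltransferase, had 348 (148 and 203). The peak of rpa-2, a subunit of the single-strand DNA binding protein RPA, had 335 (163 and 167). In all of these, the replicates' own values were well above the medians of the 392 peaks, which were 45.5 in replicate 1 and 52.2 in replicate 2.

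A peak lay inside the gene of SAEG-1, the protein that acts with SAEG-2. It was in an intron that is the first in some transcript of saeg-1, 1190 bp downstream of an internal 5′ end (chrV:10858498-10858641). Its signal value was 302, with values of 131 in replicate 1 and 175 in replicate 2. None of the 392 peaks had hda-2 or egl-4 as its nearest coding gene. Of the 20 strongest peaks in both replicates, others lay in introns of pqn-41 (281; 130 and 141), of the Integrator subunit gene ints-8 (249; 115 and 122) and of the Mediator subunit gene mdt-26 (227; 118 and 101.5). The peak of ints-8 was 22 bp from the 5′ end of rpr-1, the gene of the RNase P RNA, which trims tRNA precursors.

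The 392 summits fell outside coding sequence more often than the bases at their distance do. Summits were intergenic in 154 peaks (39.3%, 34.6 to 44.2), against 29.4% of the bases between 500 and 2000 bp, and in introns in 133 (33.9%, 29.4 to 38.8), against 36.2%. Exons of noncoding genes outside coding genes held 49 (12.5%, 9.59 to 16.1), against 2.38% of the bases. Of these 49, 21 were within 100 bp of a tRNA gene and 6 of a snoRNA, small nuclear RNA or spliced leader gene. The other 22 were at neither, so this class overlaps the small RNA results below. Coding exons held 48 (12.2%, 9.36 to 15.9), against 27.8%. A noncoding exon inside a coding gene was counted with the classes of that coding gene, mostly as intron, for summits and bases alike. The 3′ UTRs held 8 summits (2.04%), against 3.89% of the bases, and the 5′ UTRs 0, against 0.417%. That 0 allows a share of up to 0.765% (3 counts of 392), which is above the share of bases, so it shows no depletion. The base shares are a count of the whole genome and were set beside the peaks without a test.

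**Figure D3:**
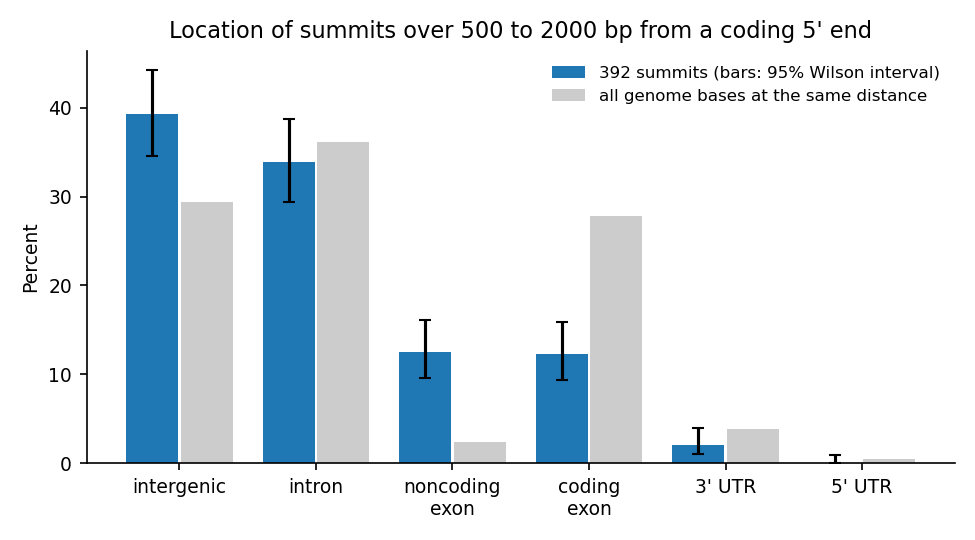
Share (percent, y axis) of the 392 summits in each location class (blue, with 95% Wilson intervals) and of all genome bases 500 to 2000 bp from a coding 5′ end (grey). Noncoding exons outside coding genes hold 12.5% of summits and 2.38% of bases, and coding exons 12.2% of summits and 27.8% of bases. Of the 49 summits in noncoding exons, 21 were within 100 bp of a tRNA gene and 6 of a snoRNA, small nuclear RNA or spliced leader gene.

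The coding exon class had the lowest median signal value of the 5 occupied classes (80.2) and was rarely shared. Only 1 of its 48 peaks was in both replicates (2.08%, 0.369 to 10.9), the peak of zip-2 in a coding exon of dos-3 (159; 90.5 and 71.5). The next strongest were those of B0284.3 (110; 53.7 and 47.9) and slrp-1 (104; 45.5 and 59.6), and neither was in either replicate's list. By contrast, 49 of 154 intergenic peaks (31.8%, 24.98 to 39.5), 17 of 49 in noncoding exons (34.7%, 22.9 to 48.7) and 30 of 133 in introns (22.6%, 16.3 to 30.4) were in both. Of the peaks at this distance, coding exons held 4.55% when replicate 1 was read alone and 4.76% when replicate 2 was. Both shares are below the interval of the conservative list.

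Of the 133 intronic peaks, 53 were in an intron that is the first of some transcript (39.8%), while first introns hold 31.9% of the intronic bases at this distance. Outside coding genes, 110 peaks lay between genes in tandem, 64 between divergent genes and 29 between convergent ones. The matching shares of bases are 55.2%, 35.2% and 9.62%, and those of the peaks 54.2%, 31.5% and 14.3%.

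Peaks at tRNA genes were more frequent among the 392 than among the nearer peaks. A tRNA gene lay within 100 bp of the summit in 54 of the 392 peaks (13.8%, 10.7 to 17.5), against 19 of 424 nearer peaks (4.48%, 2.89 to 6.89; Fisher's exact test, adjusted p = 3.64e-05). Among farther peaks it was 57 of 329 (17.3%, 13.6 to 21.8; exact test, adjusted p = 0.356), a share that the test did not tell from that of the 392 peaks and that was the lower one (12.7%) in the list of replicate 2. Only 0.162% of the bases at this distance are that near a tRNA gene. Replicate 1 alone gave shares of 14.3% for peaks at 500 to 2000 bp and 5.03% for nearer ones, and replicate 2 alone gave 16.4% and 4.29%.

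The tRNA genes themselves lie mostly away from coding 5′ ends. Of the 612 annotated tRNA genes, 117 were within 500 bp of one, 256 at 500 to 2000 bp and 239 farther away. A conservative summit lay within 100 bp of 20 of the 117 (17.1%, 11.3 to 24.9), 62 of the 256 (24.2%, 19.4 to 29.8) and 57 of the 239 (23.8%, 18.9 to 29.6), so these intervals overlap. In 38 of the 54 peaks the summit was inside the tRNA gene, in 12 upstream of it and in 4 downstream. The median summit was 25.5 bp into a gene of median length 72 bp. The internal promoter of tRNA genes, read by RNA polymerase III, consists of an A box and a B box within the transcribed part. The B box core GTTCGANNC (either strand) was within 50 bp of the summit in 24 of these 54 peaks (44.4%), in 9 of the other 338 (2.66%) and in 0.757% of windows of the same length tiled over the sequence at this distance. The 54 peaks were chosen for a nearby tRNA gene, which holds a B box, so this contrast describes tRNA gene sequence and not binding. The core was not counted in tRNA genes without a peak.

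The strongest tRNA peaks were those of R11.4 at a tRNA-Tyr gene (246; 126 and 115), of M02F4.2 at a tRNA-Gly gene (236; 105 and 135) and of pqn-71 at a tRNA-Lys gene (194; 81.9 and 100.7), all in both replicates. Genes of 18 tRNA products were represented, led by tRNA-Gly (9 peaks, of 55 annotated genes), tRNA-Leu (5 of 39), tRNA-Lys (5 of 46) and tRNA-Pro (4 of 42). As a group the tRNA peaks had a median signal value of 103, against 92.0 for the 301 peaks at neither a tRNA gene nor one of the small RNA genes described next, and 13 of 54 were in both replicates (24.1%, 14.6 to 36.9).

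Genes of snoRNAs, spliceosomal snRNAs and spliced leaders were also frequent at these summits. One of them lay within 100 bp in 37 of the 392 peaks (9.44%, 6.93 to 12.7), against 14 of 424 nearer peaks (3.30%; exact test, adjusted p = 0.00205) and 16 of 329 farther ones (4.86%; adjusted p = 0.0431). The difference from nearer peaks was not called in the list of replicate 1 (13.0% against 7.82%, exact test, adjusted p = 0.424) and was in that of replicate 2 (13.8% against 4.29%, adjusted p = 0.00576). The difference from farther peaks was called in neither replicate's list, nor when peaks at tRNA genes were set aside, although in each its size was above the 4.58 percentage points of the conservative list. It was 5.42 points in replicate 1 and 7.42 in replicate 2 (exact test, adjusted p = 0.424 and 0.0625), and 5.06 without tRNA peaks (adjusted p = 0.100). Of the bases at this distance, 0.162% are as near to such a gene. How these genes themselves are spread over the distance ranges was not counted, and the tests do not adjust for it.

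These 37 peaks, none of which was also at a tRNA gene, comprised 27 at snoRNA genes, which guide the modification of ribosomal RNA, 6 at snRNA genes and 4 at spliced leader genes. Their median signal value was 111. Of the 37, 15 were in both replicates (40.5%, 26.3 to 56.5), against 70 of the 301 peaks at neither kind of gene (23.3%, 18.8 to 28.3). The strongest was that of F55C5.17, inside the snoRNA gene C51F7.4 in an intron of frm-7 (371; 181 and 188). The next snoRNA peaks were those of W03C9.1 (212; 110 and 114) and str-56 (174). At snRNA genes the strongest were those of col-94 (215; 120 and 98.4), inside W05B2.8, of cox-6A (124) and of eif-2Bgamma (96.96).

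The spliced leader peaks were those of ZK1248.17 at sls-2.1 (371; 192 and 179), of ins-13 at sls-2.2 (242; 108 and 126), of egg-5 at sls-2.4 (234.6; 119 and 107) and a second one of ins-13 at sls-2.3 (90.0). The first 3 were in both replicates. In the printed sequence of ZK1248.17, the summit lies 6 bp upstream of the first base of sls-2.1 (chrII:5844865-5844974), and the capitals open with the leader that is joined to the 5′ end of downstream messages in operons. The B box core was found in 6 of the 37 peaks (16.2%, 7.65 to 31.1), among them F55C5.17, against 3 of the 301 peaks at neither kind of gene (0.997%, 0.340 to 2.89). No member lay within 100 bp of any of the 261 annotated miRNA genes, which allows a share of up to 0.765% of the 392 peaks. The share of bases that near a miRNA gene was not counted, so this 0 is not read as a depletion. In all, 152 peaks (38.8%) were within 500 bp of a 5′ end of some noncoding gene, where 8.41% of the bases at this distance lie. Apart from those near the small RNA genes above, these numbered 61, and 19 of them were in both replicates.

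**Figure D4:**
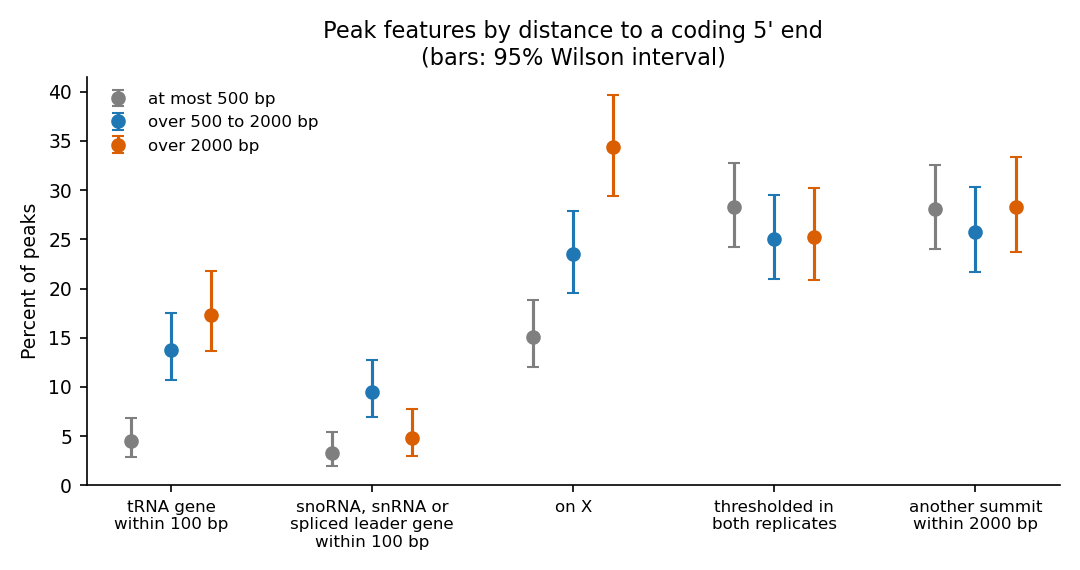
Share of peaks (percent, y axis, with 95% Wilson intervals) that have each of 5 features (x axis), for peaks at most 500 bp (grey, n = 424), 500 to 2000 bp (blue, n = 392) and over 2000 bp (orange, n = 329) from a coding 5′ end. The blue and grey intervals are apart for tRNA genes (13.8% and 4.48%) and overlap for sharing between replicates (25% and 28.3%).

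The X chromosome carried 92 of the 392 peaks (23.5%, 19.5 to 27.9), more than its share among nearer peaks (64 of 424, 15.1%; exact test, adjusted p = 0.00616) and less than among farther peaks (113 of 329, 34.3%; adjusted p = 0.00534). The bases of X make up 14.4%, 17.1% and 20.5% of the nearer, the 500 to 2000 bp and the farther range, and the tests do not adjust for these shares. The tRNA genes moved with this result. Of the 54 tRNA peaks, 31 were on X (57.4%), as are 276 of the 612 tRNA genes (45.1%). With all peaks within 100 bp of a tRNA gene left out, X held 61 of 338 peaks (18.05%) against 61 of 405 nearer ones (15.1%; exact test, adjusted p = 0.564), and the difference was no longer called. The difference from farther peaks was still called (80 of 272, 29.4%; exact test, adjusted p = 0.00511). With tRNA peaks kept, the difference from farther peaks was not called in the list of replicate 1 (26.6% against 31.1%; exact test, adjusted p = 0.632). It was called in that of replicate 2 (26.5% against 40.1%; exact test, adjusted p = 0.0237).

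Per Mb of sequence at this distance, X held 12.8 peaks, chromosome II 11.7, III 11.6, I 9.30, IV 6.47 and V 5.87. The counts behind these densities were 92, 79, 63, 57, 45 and 56 peaks. Chromosome II had more peaks than V but a smaller share of them in both replicates, with 12 of 79 (15.2%, 8.91 to 24.7) against 12 of 56 (21.4%, 12.7 to 33.8), intervals that overlap. On X, 29 of 92 were in both (31.5%, 22.9 to 41.6). The strongest peaks of IV and V were those of C46C2.7 (243; 94.9 and 147) and F55C5.17.

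Another conservative summit lay within 2000 bp of 25.8% of the 392 peaks (21.7 to 30.3). The shares were 28.1% for nearer peaks and 28.3% for farther ones, and neither difference was called (exact test, adjusted p = 0.556 for both). Counting only neighbours that do not overlap, the number was 56 (14.3%). The 392 peaks had 356 different nearest coding genes, 35 of which were also nearest to a peak within 500 bp. With overlapping members counted once, 17 genes were nearest to more than 1 of them. The zfp-1 gene, which encodes a PHD finger protein related to human AF10, had 3, all inside its introns (178, 135 and 88.9). The mnk-1 gene, a kinase of the MAPK-interacting family, also had 3, in an intron (166), upstream (111) and in a coding exon (96.9).

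Of all 19973 protein-coding genes, 356 (1.78%) were the nearest gene of a member, and lists of genes by function are read against that share, without a test. Of 30 genes of histone deacetylase complexes, 2 were nearest to a member, saeg-1 (302) and rcor-1, the CoREST corepressor (78.1, in neither replicate). Of 9 histone acetyltransferase genes it was 1, cbp-1. Of 51 insulin signalling genes, 6 were (11.8%): the insulin-like peptide genes ins-13 (242 and 90.0, at spliced leader genes) and ins-39 (154; 69.8 and 80.1), the 14-3-3 genes ftt-2 (217; 99.2 and 115) and par-5 (73.4, in a 3′ UTR), the FOXO factor gene daf-16 (120; 61.6 and 77.1), and the kinase gene pdk-1 (97.97). The peak of daf-16 was in a later intron and in the list of replicate 2 alone, and those of pdk-1 and par-5 were in neither list.

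Of 15 genes of larval timing, 3 were nearest to a member: the steroid receptor gene daf-12 (120; 48.2 and 74.6, in an intron and in replicate 2 alone), lin-42 (79.9), a period homologue, and lin-14 (72.4), the target of the lin-4 microRNA. The last 2 were in neither replicate's list. Of 177 cuticle collagen genes there were 8 (4.52%), led by col-94, whose peak was at a snRNA gene. The next were col-181 (115) and col-185 (104), whose summits were inside tRNA genes. Of 41 genes of vulval Ras and Notch signalling there were 4, led by the GRB2-type adaptor gene sem-5 (107). Of 274 nuclear hormone receptor genes there were 6 (2.19%), led by nhr-21 (145; 55.5 and 82.3), which is near the background share. Large families were rarely nearest, with 7 of 1317 chemoreceptor genes (0.532%), 2 of 412 F-box, MATH and BTB genes (0.485%) and 2 of 285 C-type lectin and lysozyme genes (0.702%). None of the 75 ribosomal protein, 72 histone, 91 homeodomain or 27 Wnt signalling genes was nearest to a member. The other lists had 3 of 109 neuropeptide genes, 2 of 50 muscle, 2 of 56 cell cycle and 2 of 40 translation factor genes. There was 1 each of 67 chaperone, 47 oxidative phosphorylation, 33 proteasome, 46 cGMP signalling, 37 intestinal and 21 TGF-beta genes.

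The centres of the 392 peaks were richer in G and C than their flanks. Mean GC content was 47.4% ± 9.21 (SD over 392 peaks) within 50 bp of the summit and 37.0% ± 8.72 in flanks that began 200 bp away, and it was higher at the centre in 318 peaks. All words of 6 bases, each taken with its reverse complement, were compared between centres and flanks by an exact binomial (McNemar) test with adjustment over all words. In the 392 peaks, 103 words (4.95%) were in more centres and 107 (5.14%) in more flanks. The words of the centres had a mean GC content of 71.5% and those of the flanks 14.3%, and the part of GC content in these calls was not tested. Nearer peaks had 201 and 147 such words and farther ones 40 and 50.

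The leading word was ACGCAG. It was at the centre of 51 of the 392 peaks (13.0%, 10.04 to 16.7) and in the flanks of 8 (2.04%; exact test, adjusted p = 2.51e-07), and in 1.82% of tiled windows. It was also more frequent at the centre of nearer peaks (14.9% against 3.07%; exact test, adjusted p = 7.57e-08) and farther ones (11.6% against 2.43%; adjusted p = 0.000735). Within the 392 peaks it was in 22 of 154 intergenic (14.3%), 13 of 133 intronic (9.77%), 10 of 49 noncoding exon (20.4%) and 5 of 48 coding exon summits (10.4%). Of the 98 peaks in both replicates 16 carried it (16.3%, 10.3 to 24.9), and of the 183 in neither, 16 (8.74%, 5.45 to 13.7).

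A longer run, GAGACGCAG (reverse complement CTGCGTCTC), was at the centre of 5.90% of nearer and 5.17% of farther peaks and in 0.352% of windows. Among the 392 peaks, the word was part of this run in 21 of the 51 (5.36% of the 392). These peaks included epg-9, an autophagy gene (207; 70.0 and 128), atgl-1, the adipose triglyceride lipase gene (197; 86.8 and 102), and aak-2, a catalytic subunit of AMP-activated kinase (107; 46.3 and 62.3), all in both replicates. They also included egl-9, the prolyl hydroxylase that marks HIF-1 (95.6; 38.6 and 58.2, in replicate 2 alone), and pdk-1. These genes were named after their values were seen.

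**Figure D5:**
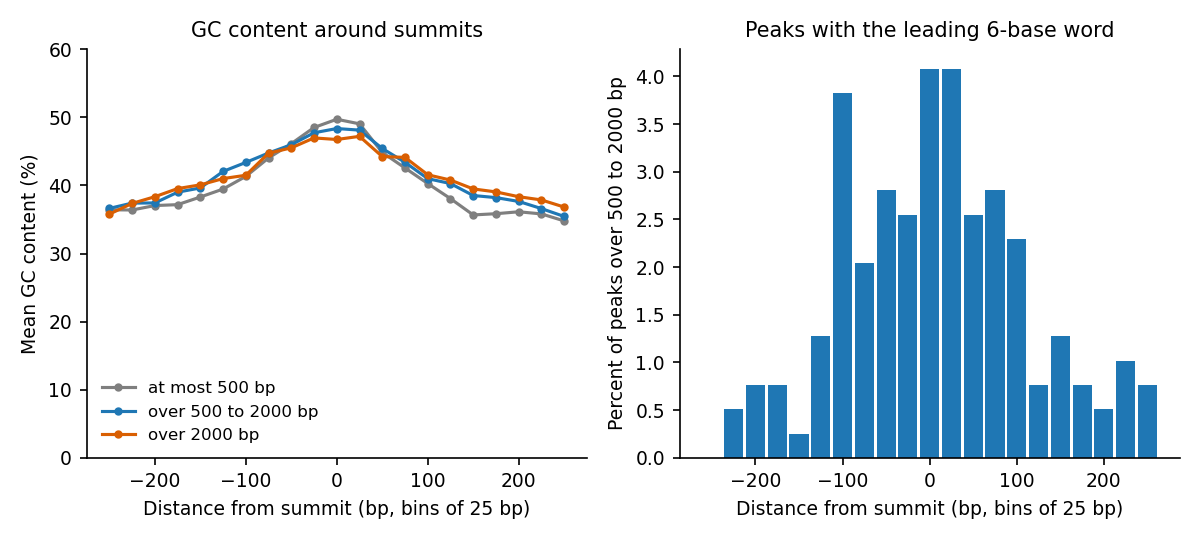
Left, mean GC content (percent, y axis) in bins of 25 bp by distance from the summit (x axis) for peaks at most 500 bp (grey), 500 to 2000 bp (blue) and over 2000 bp (orange) from a coding 5′ end. Right, percent of the 392 peaks with the word ACGCAG in each bin. It is highest at 4.08% in the bins at the summit and at +25 bp. It is 2.55% at -25 bp, 3.83% at -100 bp and at most 1.28% beyond 110 bp.

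The E box word CACGTG, bound by basic helix-loop-helix factors such as those of the MYC, MAD and Mondo families, was at the centre of 26 peaks (6.63%, 4.57 to 9.54) and in the flanks of 9 (2.30%; exact test, adjusted p = 0.0451), and in 1.66% of windows. This call was lost in the non-conservative list (5.88% against 2.73%; exact test, adjusted p = 0.122). The call was kept with outermost 5′ ends (5.48 percentage points; exact test, adjusted p = 0.00576). It was also kept with overlapping peaks joined, a setting chosen after seeing the data (5.16 points; exact test, adjusted p = 0.0142). The other settings with fewer peaks lost the call, although the difference was larger there than the 4.34 percentage points of the conservative list. It was 6.82 points above the median signal value (exact test, adjusted p = 0.0639) and 5.07 points without peaks within 1000 bp of a tRNA gene (adjusted p = 0.0612). In the replicates' own lists it was 6.49 points in replicate 1 and 5.29 in replicate 2 (exact test, adjusted p = 0.127 and 0.330). The E box word was also at the centre of 4.95% of nearer and 7.90% of farther peaks. Within the 392 peaks it shared 5 peaks with ACGCAG, and 72 of the 392 (18.4%) held at least 1 of these words. Among the E box peaks were 2 of mdl-1, the MAD-like factor gene (181; 77.1 and 98.6, in both lists; and 83.4, in neither). Also among the E box peaks was 1 of mml-1, the Mondo factor gene (87.7; 32.4 and 63.2, in replicate 2 alone). Genes of central metabolism among them were acly-1, an ATP citrate lyase (105; 42.6 and 57.9, in replicate 2 alone), and idh-1, an isocitrate dehydrogenase (92.8; 45.1 and 49.3, in neither list). These were also named after their values were seen.

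The alternating word GCGCGC was at the centre of 23 peaks (5.87%, 3.94 to 8.65) and in the flanks of 2 (0.510%; exact test, adjusted p = 0.000372), and in 0.614% of windows. It was also called in nearer peaks (8.02% against 0.472%; exact test, adjusted p = 1.12e-06) and not in farther ones (3.65% against 1.52%; adjusted p = 0.468), and none of the 23 was a tRNA peak. The heat shock, GATA and FOXO words were near their flank shares. The paired heat shock element GAANNTTC was at 21 centres (5.36%, 3.53 to 8.05) and in 24 flanks, with 7.46% of windows, the GATA factor word TGATAA at 45 (11.5%, 8.69 to 15.02) and in 36, with 9.50%, and the FOXO word GTAAACA at 2 (0.510%, 0.140 to 1.84) and in 3, with 1.13%. Both strands were read for each word. That a word is missing from a window says nothing about the factor.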

How the data were processed

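ChIP-seq peak lists of 2 biological replicates were analysed, on ce11. Per the deposited file lists, the conservative list was made from the alignments of both replicates together, and a replicate's list from that replicate alone, in each case with a file whose kind is not named. For alignment and peak calling, software names were not given in the sources used. A deposited signal value, set by the authors without a stated unit, served to rank peaks, to compare peaks and replicates as a description, and to select the peaks above the median in 1 alternative, and was itself put to no test. The deposited ranked lists also give −log10 of the irreproducible discovery rate (IDR), capped by the authors at 5, which was used only to find peaks with an IDR of 0.01 or lower.

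Summits were placed against Ensembl release 115 (WBcel235), with sequence and symbols from RefSeq, which paired all 612 tRNA genes with a product. A base in several classes was given to the coding exon first, then to a UTR, an intron, a noncoding exon and last to intergenic sequence. An overlap of at least 1 bp counted as found in a replicate. Features were compared between distance ranges with Fisher's exact test, and words with an exact binomial test between centres (50 bp on either side of the summit) and flanks of 200 to 252 bp, both two-sided with Benjamini-Hochberg adjustment, the latter tested on simulated data. Intervals are 95% Wilson intervals and cover counting error only. Windows as long as a centre were tiled over all bases 500 to 2000 bp from a coding 5′ end. Python 3.11.15, NumPy 2.4.6, pandas 2.3.3 and SciPy 1.17.1 were used.

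The members, gene lists and words were chosen with earlier results of these data known. Peaks were named by these rules: the 20 strongest in both replicates, the 3 strongest in each location class and at each kind of small RNA gene, the strongest on each chromosome, up to 4 per gene list, the edges, and genes known to act with SAEG-2. Others are said to be chosen after their values were seen. The alternatives were other lists, summit and distance definitions, overlaps and left-out replicates.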

Additional observations from a re-analysis of the deposited data

Results flagged for a closer look

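Outside the conservative list, 11 peaks at 500 to 2000 bp passed the IDR threshold of 0.01 in the ranked list behind it, of 58 such peaks at any distance. They draw attention because they hold signal that none of the comparisons used. The strongest had its nearest 5′ end at Y102F5A.1 on X, 1494 bp away (chrX:11785672-11785975), with a signal value of 305 in the ranked list and values of 102 in replicate 1 and 207 in replicate 2. The next were those of C26H9A.3 on IV (294; 134 and 167) and Y57G11C.8 on IV (261; 140 and 136). Only saeg-1 and the 7 peaks above it among the 392 had a higher value than C26H9A.3, and 9 of the 11 were intergenic, with 1 in an intron and 1 in a coding exon. No reason for their absence is given in the sources used here.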

How the results depend on the processing

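No paired analysis was possible because the 2 replicates form 1 group. Differences below are those of the 392 peaks minus the other range, in percentage points, and the cause was not tested. The excess of tRNA peaks over nearer peaks was called in every setting run. Its difference from farther peaks was 3.09 for peaks above the median signal value, with the other sign, and ran from -1.68 to 3.73 without a replicate. For snoRNA, snRNA and spliced leader genes, the differences from nearer and farther peaks were no longer called with the range set at 1000 to 2000 bp (2.83 and 3.47). Neither was that from farther peaks with the summit inside the gene (1.85) or, a setting chosen after seeing the data, without tRNA peaks (5.06). Without a replicate they ran from 5.17 to 9.47 and from 5.42 to 7.42. For X, the difference from farther peaks was not called above the median (-8.97), with outermost 5′ ends (-6.86) or at 1000 to 2000 bp (-9.81), and ran from -13.7 to -4.47 without a replicate. That from nearer peaks was not called at 1000 to 2000 bp (7.37) or without tRNA peaks (2.99). Sharing between replicates changed sign above the median (1.54 and 5.85) and ran from -0.0597 to 2.996 against farther peaks when only 1 replicate's list was asked for. For neighbouring summits, the difference from nearer peaks was 4.81 in the non-conservative list, 2.66 with outermost 5′ ends and 1.74 at 1000 to 2000 bp, and ran from 2.01 to 4.14 without a replicate. That from farther peaks ran from -3.84 to 1.87 without a replicate and was called above the median (-11.3).

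Of the words in more centres, 50 were called above the median (51 in the flanks), 53 without peaks within 1000 bp of a tRNA gene, 20 to 21 without a replicate and 30 to 35 in the flanks, in settings with fewer peaks. Of the 103, 49 were among the 53. The share of summits at 500 to 2000 bp was 36.4% in the non-conservative list, 30.8% above the median and 31.9% with outermost 5′ ends (where they hold 38.6% of bases), and 34.1% to 34.9% without a replicate. Intergenic summits were 38.4%, 47.2% and 42.2% in these 3 settings, 39.6% with peak midpoints, 38.9% with overlapping peaks joined, and 44.2% to 44.4% without a replicate. Noncoding exons held 10.3%, 17.05% and 13.2%, then 11.9%, 13.0% and 13.8% to 14.3%, and coding exons 13.7%, 2.84%, 12.9%, and 11.7% with overlapping peaks joined, and 4.55% to 4.76% without a replicate. Introns held 28.8% with outermost 5′ ends and 33.3% to 35.7% without a replicate.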

Other observations

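Strong peaks on X shared sequence that the words above do not cover, which was noticed on reading the printed sequences and is a description only. The letters CGCGCAGGG (reverse complement CCCTGCGCG), the core of the motif enriched on X that is known from recruitment sites of the dosage compensation complex, were within 50 bp of the summit in 3 of the 92 peaks on X and in 0 of 300 on the autosomes. The 3 were F20B6.9 (385), nspc-17 (343) and ins-39 (154), all in both replicates, and the first 2 were the strongest of the 92. Of tiled windows at the same distance, 8 of 71086 on X and 9 of 344783 on the autosomes held the letters. Among nearer peaks on X it was 1 of 64 and among farther ones 3 of 113, and 0 of 360 and 0 of 216 on the autosomes.

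The peaks of F20B6.9 and nspc-17 also shared runs of identical bases. The longest was tgtccctgcgcgatag, 16 bases that occur at 2 places in the 6 chromosomes, these 2 peaks. A second run, atcgcgaaggga, followed it in both and occurs at 13 places, 5 of them on X. Another member held that run, the peak of fbxb-58 on X (230; 88.0 and 130 in the replicates), which is likewise in both lists.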
